A study of Mus musculus with 6 samples.

Results

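The genes described here code for the subunits, activators, inhibitor and assembly chaperones of the proteasome. They were chosen by name, as every gene whose symbol starts with Psm followed by a letter from a to g and a number, and 46 of the 10989 genes in the deposited table met this rule. The naming rule uses no measured value, although it was set with earlier results of these data known. RNA was sequenced from 3 Input and 3 Positive libraries made from mouse brain, and the replicate numbers 1222, 1223 and 1227 occur in both fractions. All 6 libraries come from mice of the genotype Tie2-cre+; NuTRAP+, and all 6 titles also carry the label WT. Tie2-cre expresses the Cre recombinase from the promoter of the endothelial receptor gene Tek, which some blood-derived cells also use. NuTRAP is a Cre-dependent reporter that tags ribosomes with EGFP and nuclei with mCherry. Input is the suspension of cells obtained by dissociating the brain. Positive is the EGFP+, CD31+ and CD11b- population sorted from that suspension as endothelial cells. Neither age nor sex of the animals is stated in the labels, and no treatment is named.

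The proteasome is the protease that degrades most ubiquitin-tagged proteins in the cytosol and nucleus. Its barrel-shaped 20S core has outer rings of alpha subunits and inner rings of beta subunits. The beta subunits Psmb5, Psmb6 and Psmb7 carry the chymotrypsin-like, caspase-like and trypsin-like active sites. Interferons induce alternative catalytic subunits, Psmb8 (beta5i), Psmb9 (beta1i) and Psmb10 (beta2i), which are built into newly made cores in place of Psmb5, Psmb6 and Psmb7. They also induce Psme1 and Psme2, the alpha and beta chains of the activator ring PA28. The resulting immunoproteasome is known for producing peptides that fit MHC class I molecules, and these 5 genes are called the immunoproteasome genes below.

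The summed estimated counts were 4814966 to 52283556 in Input and 4772866 to 23525401 in Positive, and both libraries numbered 1223 were the shallowest of their fraction. The Positive fraction had the markers its label calls for. All 8 endothelial markers (such as Cdh5 and Cldn5) were higher in Positive, and their summed level was 20496.4 to 22268.2 CPM (counts scaled to library size) against 2834.5 to 3901.7 in Input. All 10 microglial markers were lower, at 1512.6 to 3171.8 against 6643.3 to 12029.2 CPM. These lists include Pecam1 (CD31), Tek and Itgam (CD11b). The sort itself used CD31, CD11b and the reporter that Tie2-cre switches on, so these genes are not independent of it. All analysed markers of astrocytes (6), oligodendrocytes (6) and neurons (5) were also lower, and no marker was at 0 in either fraction. By comparison, 26.1% of all genes were higher and 29.4% were lower. The deposited table keeps genes that reach an estimated count of 50 in all libraries of at least 1 fraction. Gfap and the 5 neuronal markers were under 50 in Positive 1223, so they entered it through Input alone. Because these are bulk samples, fewer cells of a type and less RNA per cell cannot be told apart.

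All 5 immunoproteasome genes were higher in the sorted endothelial fraction than in the suspension, while the fitted differences of the other 41 proteasome genes were all under 2-fold. In edgeR's quasi-likelihood test over the whole table (threshold: Benjamini-Hochberg adjusted p of 0.05), 13 of the 46 genes (28.3%) were higher in Positive and 0 were lower. Among all 10989 genes, 26.1% were higher and 29.4% were lower, so the share of proteasome genes that were higher was close to that of the table. The median log2 fold change was 1.32 for the 5 immunoproteasome genes and 0.23 for the other 41, against 0.03 for all genes tested. Of the 41, 8 were higher (19.5%) and 33 did not pass, and their log2 fold changes ran from -0.19 to 0.83. Without Input 1222, Input 1227, Positive 1222 or Positive 1227 the count was 5 of 41, while 20.5% to 24.5% of all genes were higher under these settings. The median of the 41 was 0.15 without Input 1222 or Positive 1223. The standard deviation of the 41 was 0.23 on the log2 scale, against 1.5 over all genes and 1.42 over the 10048 genes whose mean level lay within the range of the proteasome genes.

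**Figure D1:**
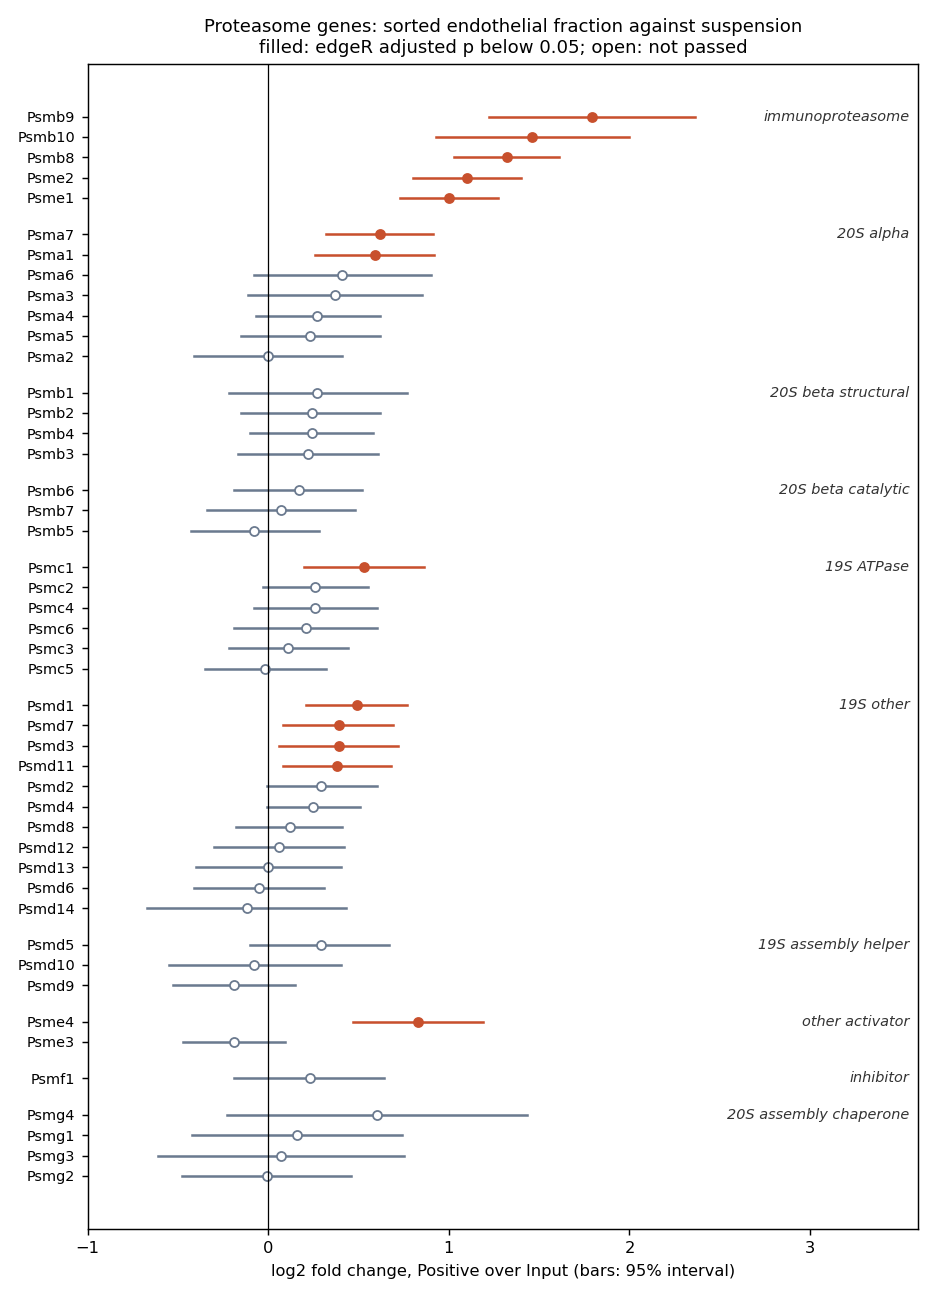
Log2 fold change of each of the 46 proteasome genes, Positive over Input, by class, with its 95% interval. Filled points passed the threshold in edgeR and open points did not. The 5 immunoproteasome genes lie at 1.0 to 1.79, and the other 41 lie at -0.19 to 0.83.

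Psmb8 (chr17:34198195-34201454, plus strand, in the MHC region) codes for beta5i, the inducible form of the chymotrypsin-like subunit. Its level was 45.9, 43.2 and 46.1 CPM in Input libraries 1222, 1223 and 1227, and 122.8, 109.5 and 105.4 CPM in Positive 1222, 1223 and 1227. Every Positive library stood above every Input library, with an SD of 1.66 CPM in Input and 9.09 CPM in Positive (n = 3 each). The log2 fold change was 1.32 ± 0.13 (SE), with an adjusted p of 4.04e-05 in edgeR.

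Psmb9 (chr17:34182099-34187330, minus strand) codes for beta1i and lies 10864 bases from Psmb8. It measured 16.1, 8.99 and 15.8 CPM in Input and 53.2, 38.1 and 52.8 CPM in Positive. The groups did not overlap, and the 1223 library was the lowest in each fraction. Its log2 fold change of 1.79 ± 0.25 (SE, edgeR adjusted p = 3.46e-04) was the highest of the 46 genes. Psmb9 entered the deposited table through its Positive libraries alone, because its lowest estimated count (45.2, Input 1223) was under the table's minimum of 50. Its place in the table therefore depended on its level in Positive, unlike that of the other 4 immunoproteasome genes, which met the minimum in both fractions.

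Psmb10 (chr8:105935728-105938392, minus strand) codes for beta2i and lies outside the MHC region. Its levels were 42.7, 22.4 and 40.0 CPM in Input and 107.4, 84.9 and 101.6 CPM in Positive. All Positive values were higher than all Input values, and library 1223 was again the lowest in each fraction. The log2 fold change was 1.46 ± 0.24 (SE, edgeR adjusted p = 8.17e-04).

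Psme1 (chr14:55578494-55581527, plus strand) and Psme2 (chr14:55587440-55591101, minus strand) lie 5912 bases apart and code for chains of the same PA28 ring. Psme1 measured 81.1, 73.9 and 81.2 CPM in Input and 162.5, 149.9 and 161.3 CPM in Positive. Psme2 measured 44.1, 38.6 and 43.4 CPM in Input and 92.4, 83.1 and 95.1 CPM in Positive. Neither gene overlapped between the fractions, and within each replicate number they were higher by 0.99 to 1.13 on the log2 scale. The log2 fold changes were 1.0 ± 0.12 (SE, edgeR adjusted p = 1.28e-04) for Psme1 and 1.1 ± 0.13 (SE, edgeR adjusted p = 1.41e-04) for Psme2. All 5 genes passed the threshold with a fold change above 2, as did 12.7% of all genes in this direction. Their log2 fold changes exceeded those of 87.1% (Psme1) to 94.3% (Psmb9) of the table.

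The constitutive catalytic subunits, which the inducible forms replace, did not pass the threshold. Psmb5 (beta5) measured 65.6, 63.9 and 75.5 CPM in Input and 56.4, 62.3 and 75.9 CPM in Positive. Psmb6 (beta1) measured 77.7, 103.9 and 94.2 CPM in Input and 89, 110.4 and 109.6 CPM in Positive. Psmb7 (beta2) measured 107.7, 157.2 and 133.1 CPM in Input and 125.6, 125.9 and 164.1 CPM in Positive. The groups overlapped for all 3 genes. Their log2 fold changes were -0.08 ± 0.16, 0.17 ± 0.16 and 0.07 ± 0.18 (SE), with edgeR adjusted p values of 0.696, 0.398 and 0.766. Over the 3 genes the 95% intervals ran from -0.43 to 0.52 on the log2 scale.

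**Figure D2:**
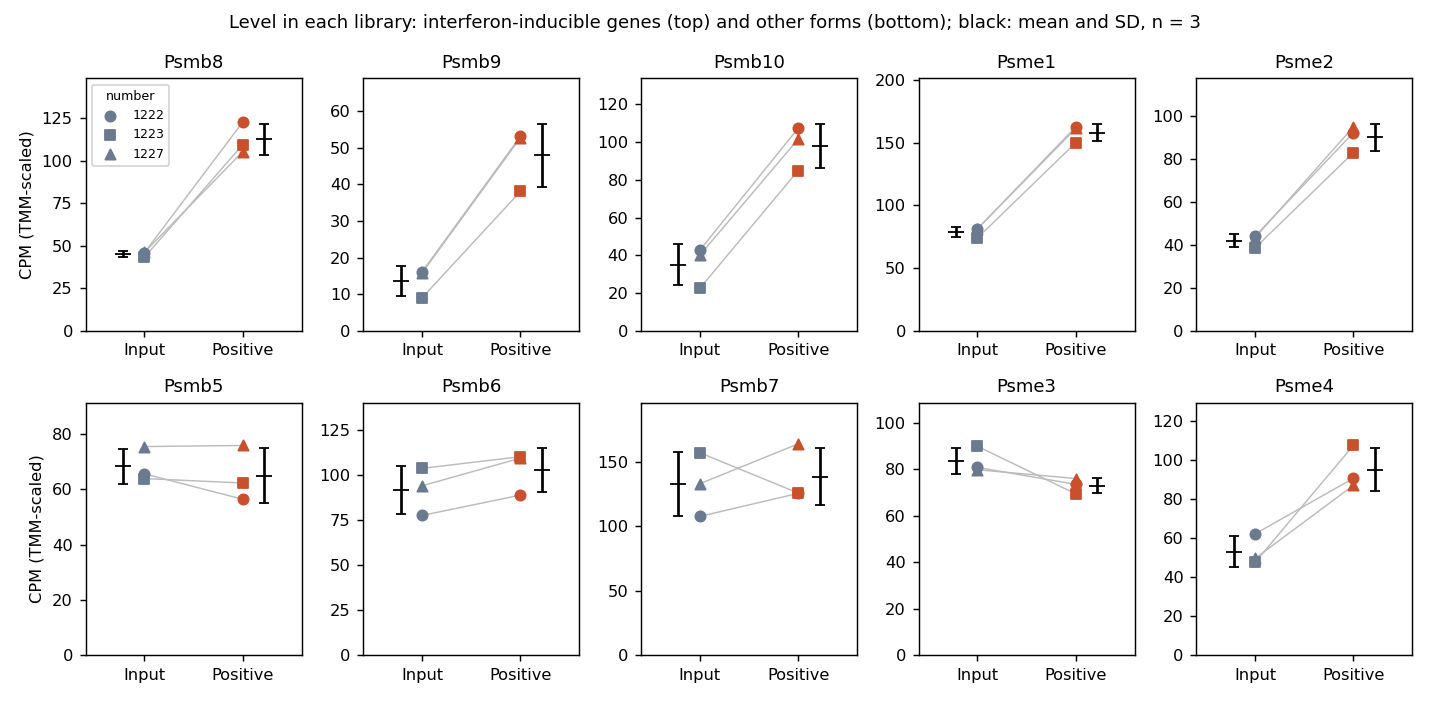
Level in CPM of the 5 immunoproteasome genes (top row) and of Psmb5, Psmb6, Psmb7, Psme3 and Psme4 (bottom row) in each library. Lines join libraries of the same replicate number, and black marks give the mean and SD of 3 libraries. All Positive values lie above all Input values in the top row and for Psme4, and the fractions overlap for Psmb5, Psmb6 and Psmb7.

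Promoters of a pair of inducible genes that were higher together, and of their constitutive counterparts that did not pass, are printed for comparison (RefSeq, GRCm38.p6). Each is the 250 bases before the gene's outermost listed start, 5′ to 3′ on the gene's strand: Psmb8 chr17:34197945-34198194 (plus), Psmb9 chr17:34187331-34187580 (minus), Psmb5 chr14:54617996-54618245 (minus) and Psmb6 chr11:70525107-70525356 (plus). Capitals mark matches to 3 patterns searched on both strands. These were the gamma-activated site TTCNNNGAA of interferon gamma responses, the interferon regulatory factor element (GAAA, any 2 bases, GAAA), and the antioxidant response element TGANNNNGC, which NRF1 and NRF2 (Nfe2l1 and Nfe2l2) bind.
Psmb8: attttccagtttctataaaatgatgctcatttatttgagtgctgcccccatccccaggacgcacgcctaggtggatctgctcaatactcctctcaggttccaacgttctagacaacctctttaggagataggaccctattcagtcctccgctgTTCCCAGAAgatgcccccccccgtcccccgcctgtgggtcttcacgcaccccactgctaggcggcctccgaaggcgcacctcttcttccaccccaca
Psmb9: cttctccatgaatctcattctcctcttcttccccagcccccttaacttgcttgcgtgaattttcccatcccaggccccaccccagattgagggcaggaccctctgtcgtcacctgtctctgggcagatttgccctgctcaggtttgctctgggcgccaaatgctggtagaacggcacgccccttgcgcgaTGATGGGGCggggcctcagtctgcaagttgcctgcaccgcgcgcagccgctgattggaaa
Psmb5: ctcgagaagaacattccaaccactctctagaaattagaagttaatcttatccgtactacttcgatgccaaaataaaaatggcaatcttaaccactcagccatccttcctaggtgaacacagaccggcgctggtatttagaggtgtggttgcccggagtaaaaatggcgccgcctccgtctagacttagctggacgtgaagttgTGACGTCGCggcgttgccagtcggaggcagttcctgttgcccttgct
Psmb6: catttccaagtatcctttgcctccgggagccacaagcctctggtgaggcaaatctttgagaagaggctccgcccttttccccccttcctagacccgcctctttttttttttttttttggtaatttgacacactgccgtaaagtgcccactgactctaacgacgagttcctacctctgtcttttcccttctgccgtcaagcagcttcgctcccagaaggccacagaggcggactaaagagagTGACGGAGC
The Psmb8 promoter held a gamma-activated site, TTCCCAGAA, 97 to 89 bases before the start, and the other 3 printed promoters held an antioxidant response element each. These elements were TGATGGGGC at 60 to 52 bases before the start of Psmb9, TGACGTCGC at 47 to 39 for Psmb5 and TGACGGAGC at 9 to 1 for Psmb6. Promoters of 39 of the 46 genes were matched. The gamma-activated site was found in 2 of these 39 (5.13%, Psmb8 and Psmg1), against 5.61% of the promoters of all tested genes. The interferon regulatory factor element was found in 3 (7.69%, Psmb3, Psmd4 and Psmd9), against 2.46%. The antioxidant response element was found in 13 (33.3%), against 36.5%. These are matches of letters in 1 window and say nothing of binding. A listed start need not be the one in use, and for Psmb10 it may be an outer one, so its window may miss the promoter.

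Within each library, the inducible form of each active site was set against the constitutive one, and this ratio was higher in every Positive library than in every Input library. The ratio of estimated counts of Psmb8 to Psmb5 was 0.70, 0.67 and 0.61 in Input 1222, 1223 and 1227, and 2.18, 1.75 and 1.39 in Positive. For Psmb9 to Psmb6 it was 0.21, 0.09 and 0.17 in Input and 0.60, 0.35 and 0.48 in Positive. For Psmb10 to Psmb7 it was 0.40, 0.14 and 0.30 in Input and 0.86, 0.67 and 0.62 in Positive. The differences in log2 ratio were 1.4, 1.68 and 1.47. A ratio within a library does not depend on how libraries are scaled to each other. The ratios of the PA28 genes to Psme3, which codes for the related nuclear ring PA28 gamma, differed in the same direction. The log2 ratio of Psme1 to Psme3 was higher by 1.2 and that of Psme2 to Psme3 by 1.3. In a two-sided exact permutation test each of the 5 ratios had p = 0.10, the smallest value that 3 against 3 libraries allow, and the value adjusted over the 5 was also 0.10, so the design could not reach the threshold.

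**Figure D3:**
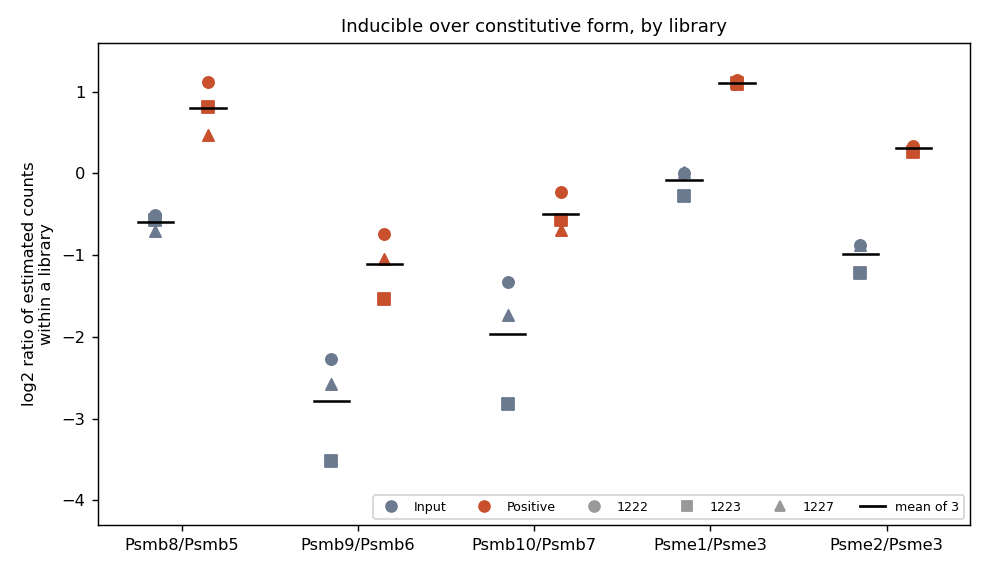
Log2 ratio of estimated counts in each of the 6 libraries, with the mean of 3 as a bar. Psmb8, Psmb9 and Psmb10 are set against the constitutive subunit each replaces, and Psme1 and Psme2 against the related gene Psme3. Counts are not divided by transcript length here, so heights compare fractions within a pair and not pairs with each other. In all 5 pairs every Positive library lies above every Input library, by 1.2 to 1.68 in the means.

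Divided by transcript length, the inducible form remained the smaller part of 2 of the 3 active sites in Positive. Psmb8 made up 25.2% to 27.9% of the summed per-length level of Psmb8 and Psmb5 in Input and 43.4% to 54.6% in Positive, which is near parity. Psmb10 made up 11.1% to 26.0% of the level it shares with Psmb7 in Input and 35.4% to 43.1% in Positive. Psmb9 made up 4.9% to 10.9% of the level it shares with Psmb6 in Input and 16.9% to 26.1% in Positive. These shares rest on the longest protein-coding GENCODE transcript of each gene. With the coding length in its place, the mean share in Positive moved from 49.1% to 62.4% for Psmb8, from 21.7% to 33.7% for Psmb9 and from 38.6% to 41.9% for Psmb10.

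The same levels, in CPM per kilobase of transcript, give the order of the catalytic subunits in each fraction. In Input, Psmb6 (115.2 ± 16.6, SD, n = 3) and Psmb7 (114.4 ± 21.4) were the highest and did not differ beyond their spread, followed by Psmb5 (76.0 ± 6.96). Psmb8 (27.7 ± 1.02) and Psmb10 (26.7 ± 8.41) followed, also within their spread, and Psmb9 (10.1 ± 2.96) was the lowest. In Positive, Psmb6 (129.1 ± 15.2) and Psmb7 (119.4 ± 19.1) were again the highest. Psmb10 (74.7 ± 8.91), Psmb5 (72.1 ± 11.1) and Psmb8 (69.2 ± 5.59) lay within their spread of one another, and Psmb9 (35.5 ± 6.34) was again the lowest. Psmb8 and Psmb10, which stood below Psmb5 in Input, were within its spread in Positive on this scale. Per coding length Psmb8 exceeded Psmb5 in every Positive library, with 57.1% to 67.6% of their summed level. Psmb10 and Psmb5 have close coding lengths (819 and 792 bases). In Positive, Psmb10 had 84.9 to 107.4 CPM and Psmb5 had 56.4 to 75.9 CPM. The order given here therefore depends on the use of transcript length.

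Of the 11 structural subunits of the core, 2 were higher in Positive and none was lower, against 26.1% and 29.4% of all genes. Of the 7 alpha subunits, Psma7 and Psma1 were higher and 5 did not pass (Psma3 also passed with the replicate number as a block, edgeR adjusted p = 0.0339). Psma7 measured 79.8, 85.1 and 86.4 CPM in Input and 117.5, 123.5 and 144.2 CPM in Positive, without overlap, and its log2 fold change was 0.62 ± 0.13 (SE, edgeR adjusted p = 0.00366). Psma1 measured 59.2, 59.5 and 54.7 CPM in Input and 92.5, 73.2 and 94.5 CPM in Positive (log2 fold change 0.59, edgeR adjusted p = 0.00753). Psma2 stood at the other end of the ring's genes, with 71.9 to 101.9 CPM in Input, 71.9 to 99.2 CPM in Positive and a log2 fold change of 0.00. The 4 beta subunits without an active site had log2 fold changes of 0.22 (Psmb3) to 0.27 (Psmb1), and none passed. Their values overlapped between fractions in all 4 cases.

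The 19S particle caps the core, recognises ubiquitin chains and unfolds substrates with a ring of 6 ATPases. Among these ATPases only Psmc1 passed. It measured 116.1, 151.2 and 141.8 CPM in Input and 176.2, 214.0 and 200.0 CPM in Positive, and its log2 fold change was 0.53 ± 0.14 (SE, edgeR adjusted p = 0.0136). The other 5 had log2 fold changes between -0.02 (Psmc5) and 0.26 (Psmc2 and Psmc4). Of the 11 remaining 19S subunits, 4 were higher (36.4%, against 26.1% of all genes). Psmd2, the other scaffold of the base, passed with the replicate number as a block (log2 fold change 0.30, edgeR adjusted p = 0.0259). Psmd1, the larger scaffold of the base, measured 142.5, 172.6 and 154.7 CPM in Input and 211.7, 225.3 and 220.7 CPM in Positive, again without overlap (log2 fold change 0.49 ± 0.12, SE, edgeR adjusted p = 0.00882). The lid subunits Psmd3, Psmd7 and Psmd11 had log2 fold changes of 0.39, 0.39 and 0.38 and edgeR adjusted p values of 0.0487, 0.0363 and 0.0359. These 3 calls lay next to the threshold. Psmd3 no longer passed without any 1 library other than Positive 1223 (edgeR adjusted p of 0.0508 to 0.18), and Psmd11 did the same (0.0581 to 0.138). Psmd7 no longer passed without any 1 library other than Input 1223 (edgeR adjusted p of 0.057 to 0.122). With all libraries but no scaling beyond library size, none of these 3 passed (edgeR adjusted p of 0.168 to 0.209). Psmd3 also did not pass in DESeq2 (adjusted p = 0.0516) or in limma on the deposited log2 values (adjusted p = 0.098). Psmd11 did not pass in limma either (adjusted p = 0.0593). Psmd14, the deubiquitinase of the lid, had the lowest value of the particle, with 48.5, 76.1 and 63.8 CPM in Input, 42.4, 75.6 and 56.1 CPM in Positive and a log2 fold change of -0.12 (edgeR adjusted p = 0.697).

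Of the activators outside PA28 alpha and beta, Psme4 was higher and Psme3 did not pass. Psme4 (chr11:30771775-30880361, plus strand) codes for PA200, a large nuclear activator that opens the core without ubiquitin. It measured 62.1, 47.5 and 49.5 CPM in Input and 90.6, 107.5 and 87.0 CPM in Positive. All Positive values lay above all Input values, and the log2 fold change of 0.83 ± 0.16 (SE, edgeR adjusted p = 0.00204) was the highest of the 41 genes outside the immunoproteasome set. Psme3 measured 80.8, 89.9 and 79.8 CPM in Input and 73.5, 69.4 and 76.0 CPM in Positive. Its Positive values lay just below its Input values, and the log2 fold change of -0.19 ± 0.12 (SE) did not pass (edgeR adjusted p = 0.22), although it passed as lower without scaling beyond library size (-0.35, edgeR adjusted p = 0.0449).

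None of the 7 assembly factors passed, nor did the inhibitor, while 55.5% of all genes passed in either direction. The helpers that build the base of the 19S particle had log2 fold changes of 0.29 (Psmd5), -0.08 (Psmd10) and -0.19 (Psmd9). Psmd9 measured 30.9, 35.0 and 32.9 CPM in Input and 29.7, 29.9 and 27.0 CPM in Positive, lower without overlap but with an edgeR adjusted p of 0.309. Psmf1, which codes for the inhibitor PI31, had a log2 fold change of 0.23. The chaperones of the alpha ring had log2 fold changes from -0.01 (Psmg2) to 0.60 (Psmg4). Psmg4 had the least certain value, with 6.67, 4.2 and 7.11 CPM in Input and 6.74, 12.9 and 8.84 CPM in Positive (edgeR adjusted p = 0.192). It and Psmg3 were the lowest of the 46 genes in CPM. Like Psmb9, both entered the table through Positive alone, with lowest estimated counts of 21.0 and 37.4.

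Of the 33 genes that did not pass, 32 had a 95% interval within 2-fold in both directions, and the exception was Psmg4 with an upper bound of 1.43 on the log2 scale. On counts simulated from these libraries, 49 of 100 genes changed by 1 on the log2 scale and 97 of 100 changed by 2 were recovered. The simulation changed only 200 genes, whereas 55.5% of all genes passed in the data in either direction. The adjustment was therefore stricter in the simulation, and these shares do not give the recovery in the data. A missed threshold still does not show equal levels. Counting libraries without a test, all Positive values were above all Input values for 17 of the 46 genes (31.8% of all genes did so) and below them for 2, Psmd9 and Psme3 (32.6% of all genes).

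**Figure D4:**
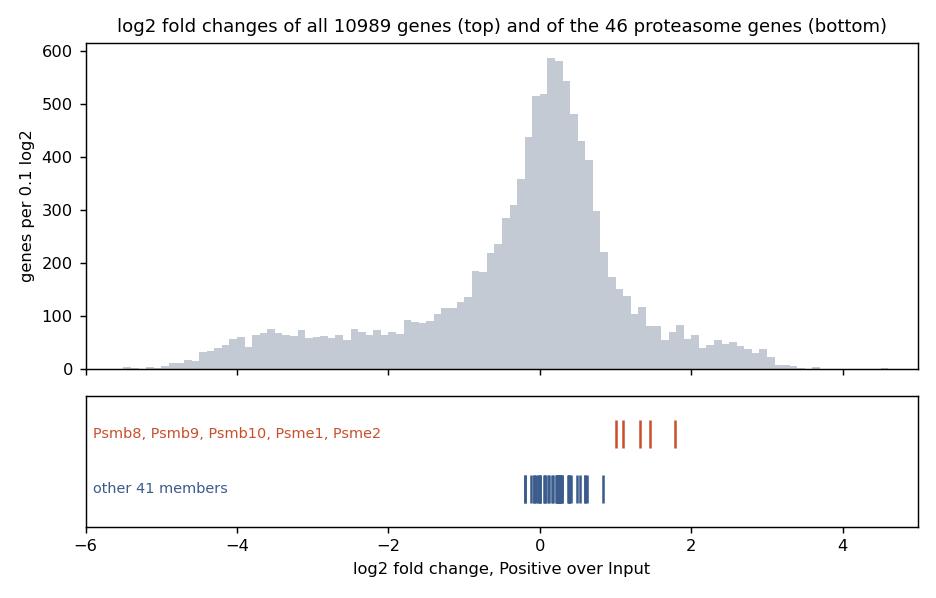
Distribution of log2 fold changes, Positive over Input, over all 10989 genes (top, genes per 0.1 log2) and the values of the 46 proteasome genes as ticks (bottom). The 5 immunoproteasome genes lie at 1.0 to 1.79 in the right flank of the distribution, and the other 41 lie around its peak.

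The immunoproteasome genes were higher within each replicate number. The median log2 difference of the 5 immunoproteasome genes was 1.33 in number 1222, 1.34 in 1223 and 1.19 in 1227, and all 5 were higher in each. For the other 41 genes it was 0.18, 0.11 and 0.27. Of all estimated counts of proteasome genes, the 5 immunoproteasome genes made up 7.0%, 4.7% and 6.2% in Input and 12.7%, 10.1% and 10.8% in Positive. The 46 genes together held 0.354%, 0.410% and 0.380% of the counts in Input libraries and 0.398%, 0.435% and 0.459% in Positive libraries. This share overlapped between fractions, and within each number it was higher in Positive.

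Markers of other cells that could be in the sorted fraction stand beside these results. The 8 perivascular macrophage markers (such as Mrc1 and Cd163) had summed levels of 564.0 to 628.2 CPM in Input. In Positive 1222, 1223 and 1227 their summed levels were 3445.8, 1369.6 and 659.7 CPM. Of the 8 markers, 7 passed as higher (87.5%, against 26.1% of all genes). Ms4a7, which is among these 7, was under the table's minimum of 50 in Input 1223 and entered the table through Positive alone. The 5 immunoproteasome genes were higher on the log2 scale by 1.0 to 1.73 within number 1222, by 1.02 to 2.08 within 1223 and by 0.99 to 1.74 within 1227, each a single pair of libraries. Of 8 blood leukocyte markers 4 were analysed, with 42.9 to 88.1 CPM in Positive against 107.5 to 240.1 in Input. Of these 4, 1 was higher and 3 were lower, against 26.1% and 29.4% of all genes. S100a9 and Ccr2, which were lower, were under the table's minimum of 50 in Positive 1223. Ly6c2, which was higher, was under it in Input 1223. Each of these entered the table only through the fraction where it was higher, so its direction is not independent of the table's minimum. The 6 pericyte markers were all higher (against 26.1% of all genes), at 1188.2 to 1855.3 against 613.5 to 749.0 CPM. The part of macrophages, leukocytes and pericytes in the result was not tested.

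Genes that build, regulate or feed the proteasome were compared next, from lists named for their function. Of 25 genes for assembly, regulation and ubiquitin shuttling, 24 were analysed, and the median log2 fold change was 0.27. Among the 24, 9 were higher (37.5%) and 2 lower (8.33%), against 26.1% and 29.4% of all genes. Nfe2l1, which codes for the transcription factor NRF1 that drives proteasome genes, was at the top of this list. It measured 246.2, 204.6 and 251.7 CPM in Input and 569.9, 478.5 and 578.7 CPM in Positive (log2 fold change 1.21, edgeR adjusted p = 1.33e-04). Pomp, the maturation factor of the 20S core, measured 87.3, 134.9 and 98.2 CPM in Input and 167.6, 274.3 and 238.1 CPM in Positive (log2 fold change 1.09, edgeR adjusted p = 0.00329). Ddi2, the protease that activates NRF1, was higher by 0.99 and Zfand2a, an arsenite-inducible proteasome-binding factor, by 0.93 on the log2 scale. The call of Ddi2 was lost without both 1227 libraries (edgeR adjusted p = 0.0541). The genes that fell were the shuttle factors Ubqln2 (-0.89, edgeR adjusted p = 5.56e-04) and Ubqln1 (-0.46, edgeR adjusted p = 0.0127), which carry ubiquitin-tagged proteins to the proteasome. Ubqln1 no longer passed without Input 1227 (edgeR adjusted p = 0.0553) or Positive 1227 (0.0532).

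The genes that act after the proteasome in class I presentation were mostly higher too. Of 11 genes analysed, 8 were higher (72.7%, against 26.1% of all genes) and 0 lower (against 29.4%), with a median log2 fold change of 1.21. H2-D1, a class I heavy chain, measured 425.8, 503.0 and 476.8 CPM in Input and 1399.5, 1531.7 and 1427.5 CPM in Positive (log2 fold change 1.63). Tap1 and Tap2, the chains of the peptide transporter into the endoplasmic reticulum, had log2 fold changes of 1.56 and 1.49. The 3 that did not pass are general folding factors of the endoplasmic reticulum: Calr (0.16), Pdia3 (0.16) and Canx (-0.07).

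Among genes of the interferon pathway that controls the immunoproteasome, 13 of 14 were analysed, with a median log2 fold change of 1.4. Of the 13, 9 were higher (69.2%) and 2 lower (15.4%), against 26.1% and 29.4% of all genes. Irf7, an interferon-induced transcription factor, measured 24.9, 10.2 and 14.9 CPM in Input and 116.1, 72.5 and 80.7 CPM in Positive (log2 fold change 2.39, edgeR adjusted p = 2.82e-04). Nlrc5, the transactivator of class I genes, measured 6.11, 2.20 and 3.11 CPM in Input and 20.8, 21.5 and 7.15 CPM in Positive (log2 fold change 2.03, edgeR adjusted p = 0.00975). Its call was lost without both 1223 libraries (edgeR adjusted p = 0.0737). Nlrc5 was also under the table's minimum of 50 in Input 1223, so like Psmb9 it entered the table through Positive alone. Irf1, which drives immunoproteasome genes, was higher by 1.85 on the log2 scale. The genes that fell were Irf8, a myeloid transcription factor (-2.25, edgeR adjusted p = 9.98e-04), and Ifngr1, a chain of the interferon gamma receptor (-0.61, edgeR adjusted p = 0.019). Ifngr1 no longer passed without Input 1222, Input 1227, Positive 1223 or Positive 1227 (edgeR adjusted p of 0.0577 to 0.0687).

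**Figure D5:**
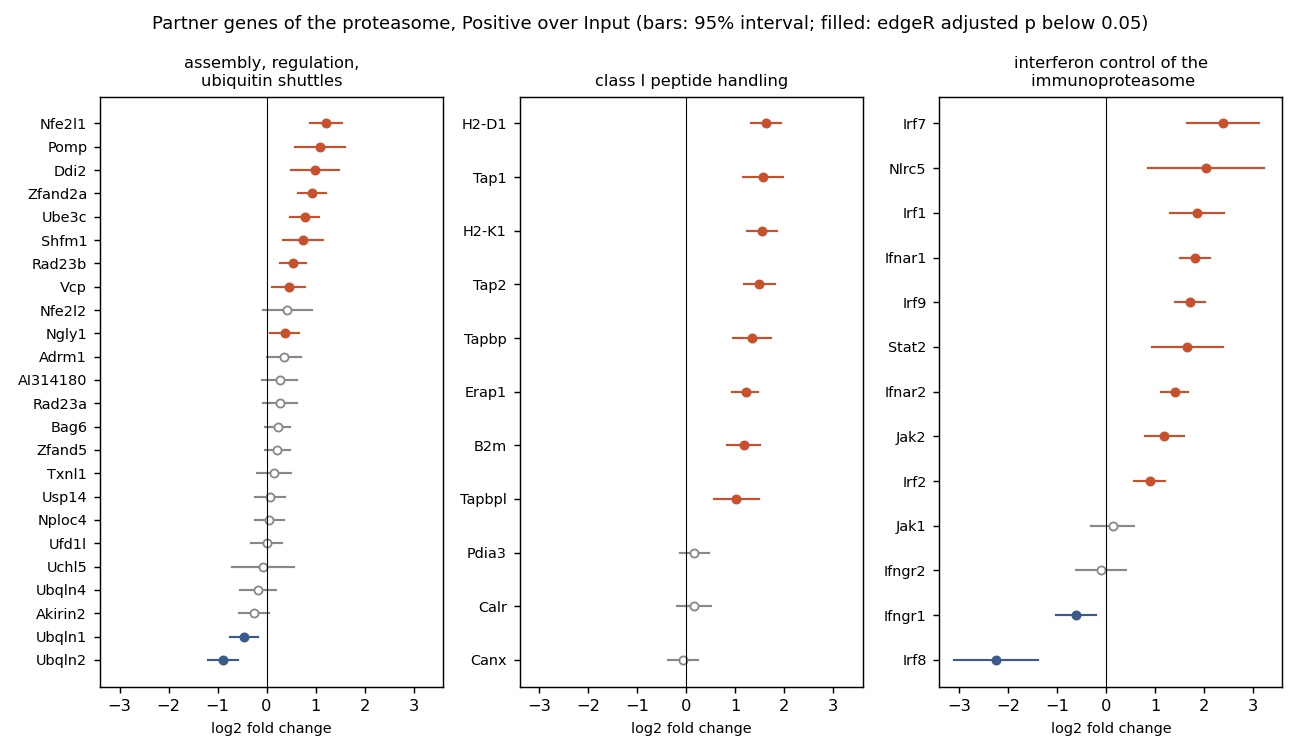
Log2 fold change, Positive over Input, of the analysed genes in 3 lists of partner genes, with 95% intervals. Filled points passed the threshold in edgeR. Class I genes and interferon pathway genes lie mostly to the right of 0, with medians of 1.21 and 1.4, and the list for assembly, regulation and shuttling lies closer to it, with a median of 0.27.

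Several of these loci overlap other genes or have copies. In the GENCODE models Psmb9 and Tap1 overlap by 212 bases on opposite strands, and antisense genes overlap Psmb8 (Gm20496) and Psmb10 (Gm16156). The library kit keeps strand, but no source used here says whether the counting used it, so reads of such partners may not be separated. Psmb5, Psmb6 and Psmb7 have processed pseudogenes in GENCODE, and the division of reads between a gene and its copies was not tested.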

How the data were processed

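RNA from 3 Input and 3 Positive libraries of mouse brain was compared. Per the file headers, the deposited table holds estimated counts (raw values, 4.7% of them whole) and log2 normalised values for each library, and its genes reach a raw value of 50 in all libraries of at least 1 fraction. The authors' notes name mm10 and DESeq, per the submitters' processing notes. No source used here names the aligner or the counting tool, or says whether counting used strand. The deposited log2 values were used only as an alternative.

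The estimated counts were rounded and tested with edgeR 4.0.16 in R 4.3.3 (quasi-likelihood test on fraction alone, after TMM scaling). A low-count filter (filterByExpr, minimum 10) removed 0 genes. P-values were adjusted by Benjamini-Hochberg over all 10989 genes, with a threshold of 0.05. Levels are CPM on the TMM-adjusted library size. The biological coefficient of variation was 21.6%. The code was tested on simulated counts, in which 5 of 10789 unchanged genes were called. Alternatives were DESeq2 1.42.0, limma 3.58.1 on the deposited log2 values, no scaling, no filter, a replicate block and leaving out libraries.

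Input and Positive libraries of 1 number deviated together (correlations of 0.451, 0.235 and 0.296 across genes, against at most 0.021 with another number), so the numbers were taken to pair the libraries. The series calls the 3 replicates biological, and no label says what a number marks, so p-values measure the spread between these libraries.

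The genes and lists were chosen with earlier results of these data known. All 46 genes matching the naming rule are accounted for. Those named with values include the 5 immunoproteasome genes, Psmb5, Psmb6, Psmb7, Psme3 and Psme4. They also include the highest and lowest of each class and those past the threshold. From each list the highest and lowest are named, with further list members as examples. Lists were not tested as sets. Some list genes and 1 list are not reported here. Coordinates are those of the table (mm10), transcript lengths are from GENCODE M21 and promoters from RefSeq (GRCm38.p6).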

Additional observations from a re-analysis of the deposited data

How the results depend on the processing

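The 5 immunoproteasome genes and Psme4 passed as higher under every alternative run. The highest edgeR adjusted p was 0.00862 (Psmb10) among the 5 and 0.0255 for Psme4. The smaller differences were less stable. With both libraries of a number left out, 8 (without 1222, where 21% of all genes were higher) or 6 (without 1227) of the 46 genes were higher, 3 or 1 of them outside the immunoproteasome set, where Psme4 was the 1 without 1227. Leaving out 1227 gave 1741 higher genes (15.8%) in the whole table. Without 1 library at a time, 5 to 10 of the other 41 were higher and their median was 0.15 to 0.32. Without scaling beyond library size the median of all genes was -0.13 in place of 0.03, the immunoproteasome median 1.16 and that of the other 41 was 0.08. Of those 41, 5 were then higher and 1 (Psme3) lower, against 19.7% and 33.4% of all genes. The cause was not tested. Psma1 and Psmd1 no longer passed without both 1222 or both 1227 libraries, nor did Psma7 and Psmc1 without both 1227 libraries. The replicate block, which pairs libraries by number, gave 15 higher and 0 lower genes of the 46 and 3298 of the table's genes higher (30%). The filter removed no gene, so leaving it out could not move a value. The 4814966 and 4772866 counts of the 1223 libraries limit precision for low genes such as Psmg4.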

Other observations

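The 5 immunoproteasome genes lie in 3 places, and within 60 kb of them neighbours differed in direction. On chromosome 17 the order is Psmb9, Tap1, Psmb8 and Tap2, with 225 bases between Psmb9 and Tap1 and 969 between Tap1 and Psmb8 by the table's coordinates, and all 4 were higher in Positive (log2 fold changes of 1.79, 1.56, 1.32 and 1.49). The flanking class II genes were lower. H2-DMb1, which codes for a chain of a peptide-loading factor, had 31.3, 22.4 and 35.0 CPM in Input and 11.8, 4.66 and 3.28 CPM in Positive 1222, 1223 and 1227 (log2 fold change -2.13, edgeR adjusted p = 0.0038). H2-Ob, which codes for a chain of an inhibitor of that factor, had 15.9, 17.4 and 18.8 CPM in Input and 3.26, 2.22 and 4.34 CPM in Positive (log2 fold change -2.35, edgeR adjusted p = 2.17e-04). Neither gene overlapped between fractions. Both were under the table's minimum of 50 in Positive 1223, so they entered the table through Input alone, the fraction where they were higher. Brd2, 59491 bases from Psmb9, did not pass (log2 fold change 0.43, edgeR adjusted p = 0.164).

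On chromosome 14, Psme1 and Psme2 lie beside Rnf31, a chain of the linear ubiquitin ligase, and Irf9, an interferon-activated transcription factor. Irf9 had 50.2, 53.5 and 45.3 CPM in Input and 174.3, 165.9 and 147.8 CPM in Positive, a log2 fold change of 1.72 (edgeR adjusted p = 1.32e-05) above those of Psme1 (1.0) and Psme2 (1.1). Rnf31, between Psme2 and Irf9, was higher by 0.53 (edgeR adjusted p = 0.0312), and Ipo4 (0.04) and Tm9sf1 (0.05) did not pass. Beyond Psme1 on the other side, Pck2 was higher by 0.45 (edgeR adjusted p = 0.0299). Dcaf11, also on that side, did not pass (-0.27, edgeR adjusted p = 0.0906). On chromosome 8, Lcat lies 1158 bases from Psmb10. Lcat codes for a cholesterol-esterifying enzyme that astrocytes secrete in brain. It was lower, with 85.6, 80.9 and 124.1 CPM in Input and 5.97, 4.43 and 9.53 CPM in Positive (log2 fold change -3.81, edgeR adjusted p = 1.33e-05). Lcat too was under the minimum of 50 in Positive 1223 and entered the table through Input alone. Farther out, Pskh1 (3925 bases from Psmb10, log2 fold change 0.58, edgeR adjusted p = 0.0353) and Edc4 (0.52, edgeR adjusted p = 0.0337) were higher, like Psmb10, Slc12a4 was lower (-0.95, edgeR adjusted p = 0.00104) and Nutf2 (0.03) did not pass.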
